A study of Rattus rattus with 18 samples.

Results

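RNA of the arcuate nucleus (ARC) from female rats that ran voluntarily on a wheel while eating a high-fat diet (HFR) was compared with that of chow-fed sedentary rats (CS), to describe which transcripts still differed from chow after 4 weeks of running. Libraries were taken by the diet and activity in their sample titles, which gave 4 HFR and 3 CS libraries, 7 of the 18 in the series. The animals were Wistar rats, with 1 library per rat. HFR rats received the 60% high-fat diet from postnatal day 21, moved at postnatal day 90 to single cages with a running wheel, and stayed on the diet for the 4 weeks of running. CS rats ate chow throughout and spent the same 4 weeks in cages without a wheel. The 3 libraries of high-fat sedentary rats (HFS), of the same age and diet as HFR but with no wheel, are given beside them. HFR and CS differed in both diet and activity, and chow-fed runners were not analysed here, so the parts of diet and running in a difference between HFR and CS cannot be told apart. The animal experiment was run in 2 rounds, and the round of each library is not given in the sources used here.

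The ARC lies at the base of the hypothalamus beside the median eminence and reads circulating signals of energy state. Its *Pomc* neurons restrain feeding, its *Agrp* and *Npy* neurons drive it, and *Ghrh* neurons control growth hormone release from the pituitary. Immediate early genes such as *Fos*, *Junb* and *Nr4a1* are transcribed within minutes of stimulation and encode transcription factors. Since each library came from 1 mm tissue punches, it held RNA from neurons, glia and vessels together, and fewer cells of a type and less RNA per cell cannot be told apart.

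The difference that passed the test in HFR vs. CS was narrow. *Nr4a1*, an orphan nuclear receptor, was 32.4 ± 4.3 CPM (SD, n = 4) in HFR and 11.2 ± 0.66 CPM (SD, n = 3) in CS. CPM are counts per 1000000 counts on the genes that passed a filter on low counts. An identifier with no symbol in the tables used here, ENSRNOG00000009779, was 15.0 ± 2.7 CPM in HFR and 48.4 ± 15.3 CPM in CS. Below the threshold, the immediate early genes *Junb* and *Fos*, the metabolic enzyme *Gpd1*, the neuronal protease *Ecel1* and the chaperone *Cryab* had higher values in every HFR library than in any CS library. The receptor gene *Tnfrsf1a*, the NF-kB subunit *Nfkb2*, the homeobox gene *Hlx* and the cell cycle inhibitor *Cdkn1a* had lower values in every HFR library. Such non-overlap was no more frequent among the genes with a symbol (5.28%) than among all genes tested (5.47%). *Pomc*, *Cck*, *Gad2*, *Trh* and *Ghrh* overlapped between the 2 groups.

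Counts on genes were 5154977, 5634204 and 4680736 in CS and 5031283, 5368885, 4753472 and 7494207 in HFR. The depth behind the CPM values is the part of these totals that fell on the 11892 genes that passed the filter on low counts. It was multiplied by TMM normalization factors of 0.984 to 1.039 in these libraries. The groups overlapped in depth. Reads aligned to more than 1 place, which are not in the counts, made up 20.41%, 20.2% and 20.63% of the CS libraries and 18.82%, 19.24%, 17.17% and 17.71% of the HFR libraries. Every HFR library lay below every CS library in this share (exact two-sided permutation test, p = 0.0571, the smallest p that 3 libraries against 4 allow), and HFS lay at 18.03%, 19.6% and 18.99%. Its part in the gene results was not tested.

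Some libraries stood apart from their group. A principal component analysis (PCA) of the CS and HFR libraries, on the 500 genes whose log2 CPM varied most among them, put 37.8% of the variance on PC1 and 27.4% on PC2. PC1 scores were -7.0, -10.1 and -10.6 in CS and -3.9, -3.2, 38.9 and -4.2 in HFR. HFR replicate 3 lay far from the other 6 libraries, and although the HFR scores were all above the CS scores, the mean difference of 16.1 did not pass the test (exact two-sided permutation test, p = 0.2, where 0.0571 is the smallest possible) and was 6.59 without HFR replicate 3 (exact p = 0.5). On PC2, CS replicate 2 and HFR replicate 4 lay together at -20.7 and -18.4, with the others between -1.8 and 19.6.

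**Figure D1:**
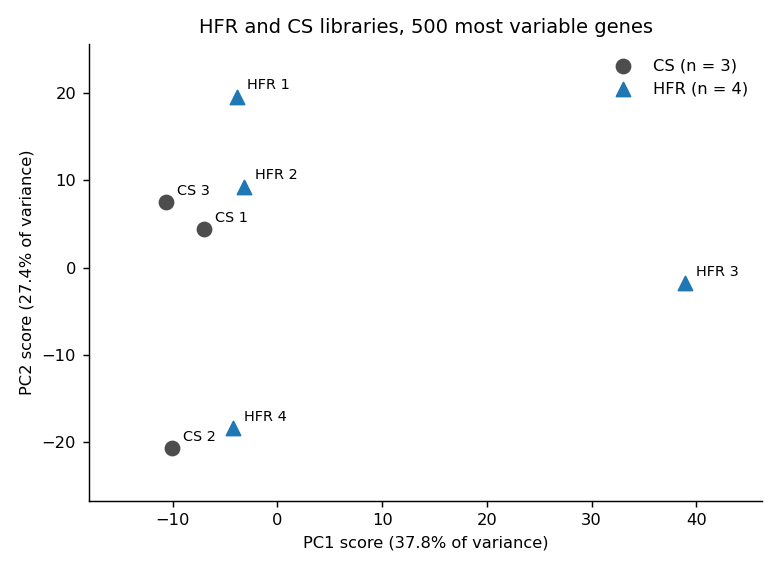
PC1 and PC2 scores of the 3 CS libraries (circles) and 4 HFR libraries (triangles) in the PCA of the 500 genes that varied most, with the number after each group name giving the replicate. HFR replicate 3 sits alone at 38.9 on PC1, and CS replicate 2 and HFR replicate 4 sit at the bottom of PC2.

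HFR replicate 3 had a count on 14312 genes, against 15231 to 15725 in the other HFR libraries and 15304 to 15561 in CS, at a depth of 4753472 counts that was above that of CS replicate 3. It held the lowest value of the 10 libraries in 2255 of 11892 genes and the highest in 1992, followed by CS replicate 3 with 1863 and 1827. It was below 0.5 of the next-lowest library in 491 genes, against 26 to 100 in the other libraries. *Mt-co1*, the mitochondrially encoded subunit 1 of cytochrome c oxidase, which was named after its values were seen, was 2444, 3020 and 3848 CPM in CS and 2667, 3132, 206 and 2476 CPM in HFR. The third HFR library was below every other library in this gene, and the other HFR libraries were within the CS range (log2 fold change -0.55, unadjusted p = 0.474, or -0.17 and 0.369 without HFR replicate 3).

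CS replicate 2 was nearest to an HFS library (Euclidean distance 54.9 over the log2 CPM of all genes tested), whereas CS replicates 1 and 3 were both nearest to HFR replicate 2 (60.6 and 66.5). HFR replicate 4 was also nearest to an HFS library, at 52.7. The counts of 8 of the 10 CS, HFS and HFR libraries matched an animal's column in the study's own gene table, whereas CS replicate 2 and HFS replicate 2 matched none, so that CS replicate 2 rests on its label alone. Values with CS replicate 2 or HFR replicate 3 left out are given beside the results they moved most.

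The marker genes of the ARC were present in both groups. The 6 of 8 arcuate neuron markers with an identifier summed to 1548, 1449 and 940 CPM in CS and 980, 1719, 1794 and 1540 CPM in HFR, with *Pomc* the most abundant and none at 0 in any library. *Agrp* and *Npy* have no identifier in the tables used here. The third CS library and the first HFR library were the lowest and the groups overlapped, as did the 9 pan-neuronal markers, led by *Map1b*, at 4358, 3167 and 5234 CPM in CS and 4800, 4276, 4272 and 4250 CPM in HFR.

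Of the other cell types the punch could hold, oligodendrocyte markers (4 of 10 with an identifier, 90.3% of the sum from *Mbp*) were 8419, 13284 and 10266 CPM in CS and 15593, 11116, 13296 and 15559 CPM in HFR. Astrocyte and tanycyte markers (7 of 12, led by *Clu*) were 3815, 6109 and 4229 CPM in CS and 3738, 4804, 5917 and 6943 CPM in HFR. Both sums had a higher mean in HFR and overlapped between the groups. Mural, endothelial and fibroblast markers (9 of 16, led by *Aebp1*) were 266, 797 and 249 CPM in CS and 225, 355, 344 and 590 CPM in HFR, so that CS replicate 2 was the highest of all 7 libraries, and *Twist1* and *Slc6a12* were at 0 in at least 1 library. Microglia and macrophage markers (6 of 10, led by *C1qb*) were 317, 455 and 295 CPM in CS and 322, 315, 354 and 427 CPM in HFR, again with CS replicate 2 highest. Leukocyte and blood markers (4 of 10, 96.4% from *Lyz2*) summed to 60.4 to 119 CPM in CS and 46.1 to 132 CPM in HFR, with *S100a8* and *Trem1* at 0 in at least 1 library, and choroid plexus and ependyma markers (3 of 8, led by *Cldn9*) to 36.7 to 71.5 CPM and 54.8 to 77.8 CPM. The study's list of CS vs. HFS differences, described below, held 4 of the 4 oligodendrocyte markers and 5 of the 7 astrocyte and tanycyte markers. It also held 4 of the 6 microglia, 9 of the 9 mural, 6 of the 6 arcuate neuron and 9 of the 9 pan-neuronal markers. These sums are therefore not independent measures of cell type levels. The part of these cell types in the gene results was not tested.

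**Figure D2:**
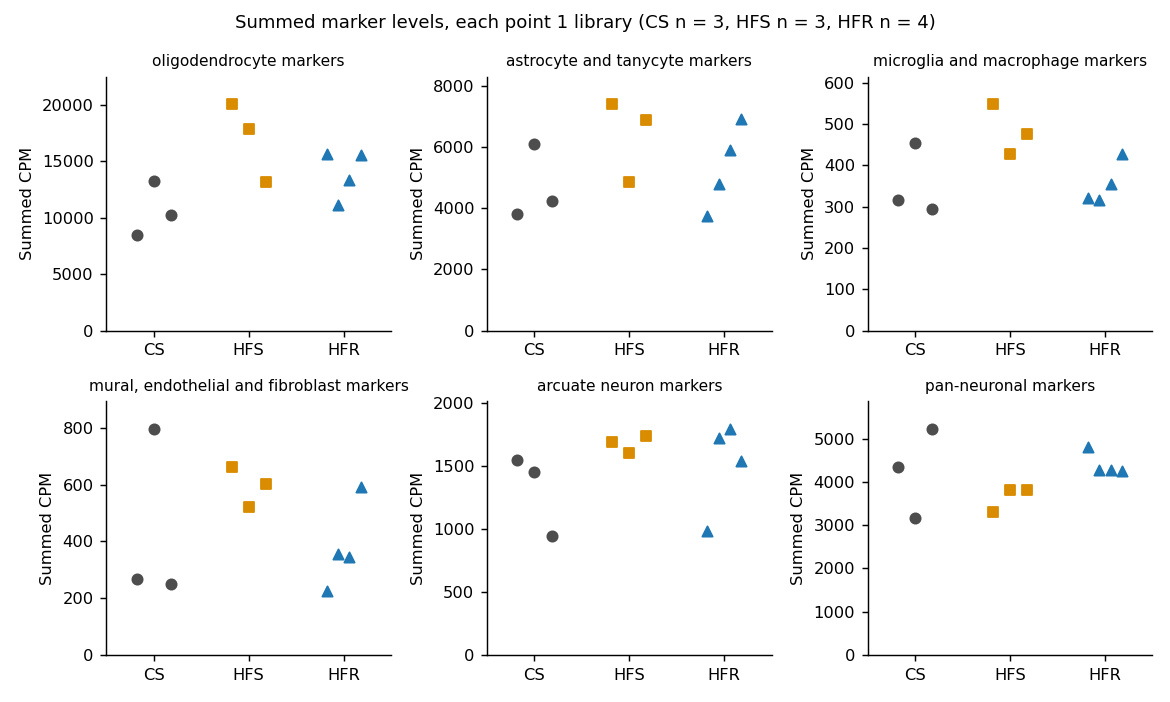
Summed CPM of 6 marker lists in each CS (circles), HFS (squares) and HFR (triangles) library, with axes from 0. CS replicate 2, the middle CS point, is the highest CS library for the oligodendrocyte, astrocyte, microglia and mural lists and the lowest for the pan-neuronal list, and HFR and CS overlap in all 6.

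Over the 11892 genes that passed the filter on low counts, edgeR with Benjamini-Hochberg adjustment at an adjusted p under 0.1 called 2 genes between HFR and CS, 0.0168% of the genes tested, with 1 higher in HFR (0.00841%) and 1 lower (0.00841%). At an unadjusted p under 0.05 there were 509 genes (4.28% of those tested), 230 higher (1.93%) and 279 lower (2.35%). The median log2 fold change over all genes was -0.01, and 48.3% of genes were above 0. The p-values measure the spread between these libraries. Without CS replicate 2 the genes at an unadjusted p under 0.05 numbered 796 of 12158 (6.55%), of which 468 (3.85%) were higher and 328 (2.7%) lower in HFR, and without both CS replicate 2 and HFR replicate 3, a choice made after seeing the data, 908. DESeq2, with a different filter that left 19395 genes tested, called 16 genes, 5 higher and 11 lower, and edgeR with no filter on low counts called 8, 1 higher and 7 lower. Of the 16, 3 had a symbol (*Nr4a1*, *Junb* and *Plekhf1*). At an unadjusted p under 0.05 DESeq2 had 625 of the 19395 genes in HFR vs. CS, 286 higher and 339 lower. The DESeq2 counts at that p given for the gene lists below are to be read against these counts over all genes. In HFS vs. CS edgeR called 1 gene (0.00841%) and 532 genes (4.47%) had an unadjusted p under 0.05, and DESeq2 called 2, with 628 at an unadjusted p under 0.05. In HFR vs. HFS edgeR called 0, with 504 genes (4.24%) at an unadjusted p under 0.05, and DESeq2 also called 0, with 599.

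*Nr4a1* (ENSRNOG00000007607) was 10.5, 11.8 and 11.4 CPM in CS, 25.2, 30.9 and 28.2 CPM in HFS and 32.3, 26.9, 33.0 and 37.5 CPM in HFR. All 4 HFR libraries and all 3 HFS libraries were above the CS libraries, which lay close together, and HFR and HFS overlapped. *Nr4a1* rose by 1.53 on the log2 scale in HFR vs. CS (standard error 0.19, edgeR adjusted p = 0.00968). The HFS vs. CS value was 1.32 (standard error 0.20) and the HFR vs. HFS value 0.21 (standard error 0.18, unadjusted p = 0.262); these comparisons share libraries with HFR vs. CS. It was called in 18 of 21 alternatives (adjusted p of 1.35e-08 to 0.19) and not without CS replicate 1 (edgeR adjusted p = 0.128), with the replicate number as a block (0.153) or with only CS and HFR without CS replicate 2 (0.19), while the fold change stayed between 1.45 and 1.61.

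ENSRNOG00000009779 was 50.1, 62.7 and 32.2 CPM in CS, 30.5, 21.8 and 26.1 CPM in HFS and 15.8, 14.6, 11.5 and 18.1 CPM in HFR. The 3 groups did not overlap, with CS highest, HFS between and HFR lowest. It fell by 1.69 on the log2 scale in HFR vs. CS (log2 fold change -1.69, standard error 0.23, edgeR adjusted p = 0.0144). Its HFS vs. CS value was -0.89 (unadjusted p = 0.00244) and its HFR vs. HFS value -0.80 (unadjusted p = 0.00398). It was called in 14 of 21 alternatives (adjusted p of 6.24e-07 to 0.275, log2 fold change of -1.91 to -1.34). Among the fits with 1 library left out, it was not called without CS replicate 1 (edgeR adjusted p = 0.128), CS replicate 2 (0.124) or HFR replicate 2 (0.107).

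**Figure D3:**
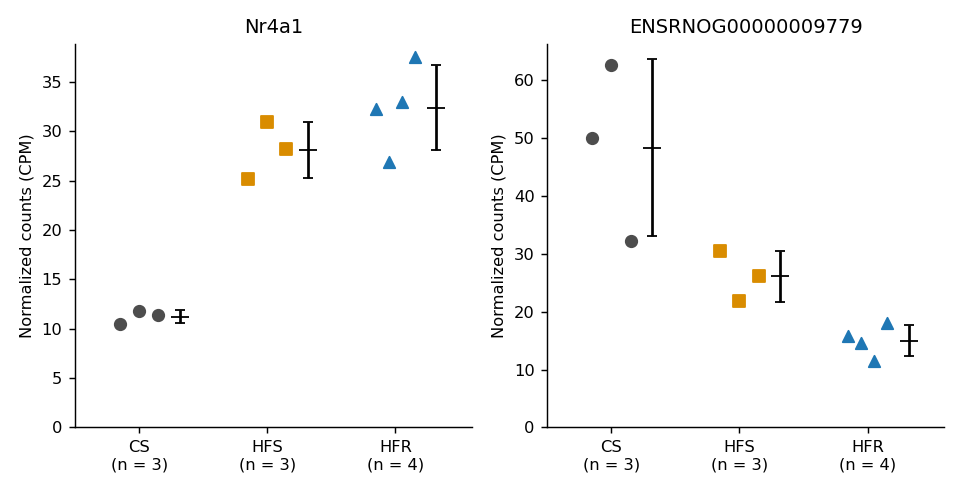
Normalized counts of the 2 genes called in HFR vs. CS, each point 1 library, with the group mean and SD as a bar beside the points (CS and HFS n = 3, HFR n = 4). *Nr4a1* is near 11 CPM in CS and above 25 CPM in both high-fat groups, and ENSRNOG00000009779 is lowest in HFR.

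Symbols were at hand for 606 identifiers, of which 568 passed the filter. Among these 568, 44 (7.75%) had an unadjusted p under 0.05 in HFR vs. CS, 28 higher and 16 lower, where the share over all genes was 4.28% (1.93% higher and 2.35% lower). For 30 of the 568 (5.28%) the HFR and CS libraries did not overlap, 22 higher and 8 lower, a share near that over all genes, where 5.47% of all genes tested did not overlap (650 genes, 2.57% higher and 2.89% lower in HFR). The 422 tested genes from the study's list of CS vs. HFS differences, which was chosen on animals that include CS libraries used here and is not independent evidence, held 16 of the 30, or 3.79% of the 422. The 146 that came only from the study's list of miR-211 responses in other rats held 14, or 9.59%. Of the 30, 21 are described here by role, 14 higher and 7 lower in HFR. Apart from *Nr4a1*, none of them passed the adjusted threshold in edgeR (adjusted p = 0.451 for *Plekhf1*, 0.463 for *Junb* and 0.995 for the others).

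**Figure D4:**
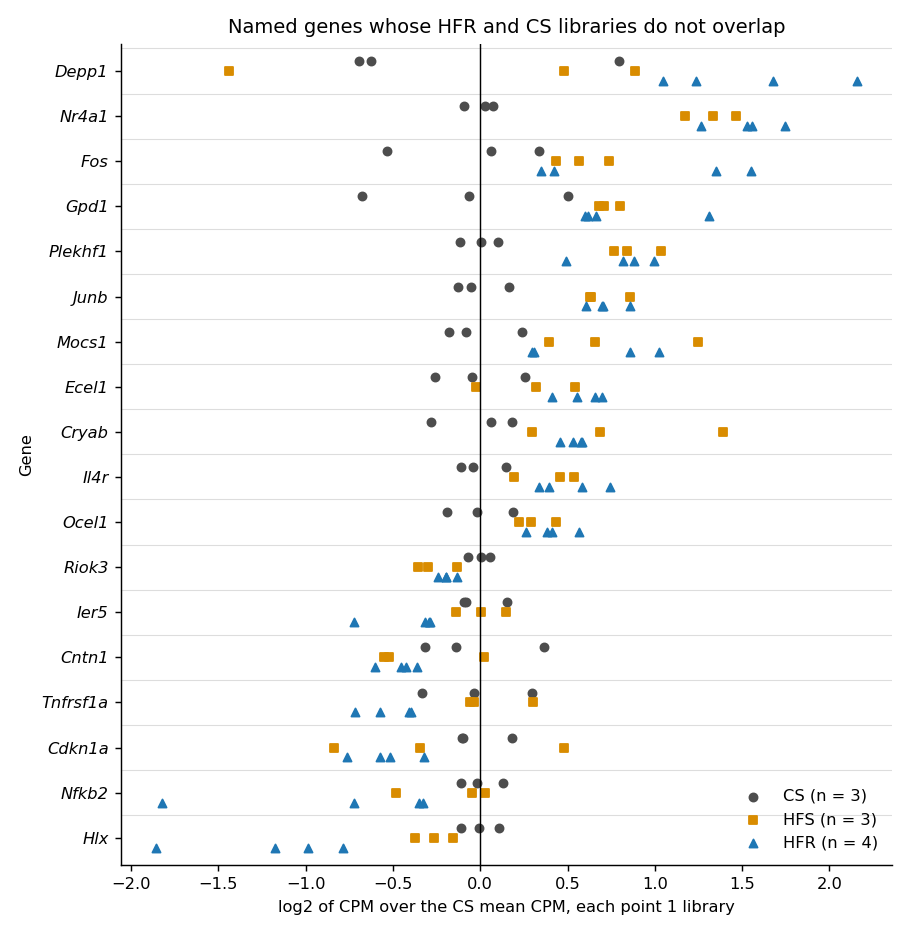
Log2 of the CPM of each library over the mean CPM of the CS libraries for 18 named genes whose HFR and CS libraries do not overlap, with CS as circles (n = 3), HFS as squares (n = 3) and HFR as triangles (n = 4). The genes were selected for this separation, so it is a description. The HFS points lie near HFR for *Nr4a1*, *Junb* and *Plekhf1* and near CS for *Ier5*, *Tnfrsf1a* and *Hlx*. *Nr4a1*, *Junb* and *Plekhf1* are in the study's list of CS vs. HFS differences, and *Ier5*, *Tnfrsf1a* and *Hlx* are not. The place of the HFS points is therefore no independent evidence.

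Of 34 immediate early genes in the list, 23 had an identifier and 22 were tested; 16 were above 0 and 6 below, 5 higher and 1 lower had an unadjusted p under 0.05, and 1 was called (2 by DESeq2), with 4.28% of all genes at that p. The median log2 fold change was 0.14, against -0.01 over all genes, and 0.25 without CS replicate 2. Of the 23, 4 came from the study's list of CS vs. HFS differences, among them *Nr4a1*, *Junb* and *Btg2*, whose direction is not independent evidence. *Junb*, a subunit of the AP-1 factor, was 22.1, 23.2 and 27.0 CPM in CS, 37.2, 37.4 and 43.6 CPM in HFS and 39.1, 36.7, 39.2 and 43.6 CPM in HFR. The 2 high-fat groups covered nearly the same range, above CS, and the log2 fold change was 0.72 in HFR vs. CS (standard error 0.16, unadjusted p = 0.000467) and 0.01 in HFR vs. HFS (standard error 0.16). DESeq2 called it (adjusted p = 0.0557).

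*Fos*, which pairs with Jun proteins in AP-1, was 33.1, 21.9 and 40.1 CPM in CS, 52.9, 46.9 and 42.9 CPM in HFS and 80.8, 92.9, 40.3 and 42.4 CPM in HFR. HFR replicates 1 and 2 were high, while replicates 3 and 4 lay just above the highest CS library (log2 fold change 1.02, standard error 0.30, unadjusted p = 0.00542). *Btg2*, an antiproliferative response gene, was 10.1, 18.5 and 10.1 CPM in CS and 20.3, 23.0, 16.6 and 16.2 CPM in HFR (log2 fold change 0.55), and *Apold1*, which is induced in vessels, was 3.37, 3.39 and 2.79 CPM and 8.57, 7.56, 4.47 and 3.13 CPM (log2 fold change 0.88). Both overlapped between the groups. *Egr1* (log2 fold change 0.05) and *Jun* (0.16) also overlapped. *Btg2*, *Apold1*, *Egr1* and *Jun* were named after their values were seen.

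*Ier5*, another response gene, went the other way. It was 44.2, 52.0 and 43.8 CPM in CS, 51.7, 42.4 and 46.9 CPM in HFS and 28.3, 38.1, 37.5 and 38.3 CPM in HFR. HFR was below both sedentary groups with no overlap, and CS and HFS overlapped. The log2 fold change was -0.39 in HFR vs. CS (standard error 0.16, unadjusted p = 0.0297), -0.40 in HFR vs. HFS (unadjusted p = 0.0259) and 0.01 in HFS vs. CS.

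In the list of thyroid hormone, retinoid and insulin pathway genes, 16 of 20 had an identifier and were tested, 10 were above 0, 4 higher and 0 lower had an unadjusted p under 0.05 (4.28% of all genes tested, 1.93% higher), and edgeR and DESeq2 each called 0 (5 at an unadjusted p under 0.05 in DESeq2). The median log2 fold change was 0.10 (-0.01 over all genes), or 0.35 without CS replicate 2, and 12 of the 16 came from the study's list of CS vs. HFS differences.

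*Gpd1*, the cytosolic glycerol-3-phosphate dehydrogenase that links glycolysis to glycerolipid synthesis, was 76.7, 51.7 and 33.9 CPM in CS, 86.6, 94.2 and 88.5 CPM in HFS and 134, 83.1, 85.7 and 82.1 CPM in HFR. HFR replicate 1 was the highest library, and the other 3 HFR libraries lay close together just below HFS (log2 fold change 0.83, standard error 0.24, unadjusted p = 0.00461). *Thrsp*, a thyroid hormone response gene of lipogenesis, was 8.98, 14.4 and 11.2 CPM in CS and 13.8, 16.2, 30.5 and 26.0 CPM in HFR, with HFR replicate 1 inside the CS range (log2 fold change 0.90, unadjusted p = 0.0183). *Slco2b1*, an organic anion transporter named after its values were seen, was 26.9, 29.9 and 10.1 CPM in CS and 37.9, 27.6, 38.8 and 42.4 CPM in HFR. The second HFR library lay inside the CS range (log2 fold change 0.71, unadjusted p = 0.0279).

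Among arcuate peptides, transmitters and receptors, 13 of 26 genes had an identifier and were tested; 7 were above 0, 2 higher and 0 lower had an unadjusted p under 0.05 (all genes 1.93% and 2.35%), and edgeR and DESeq2 each called 0 (2 at an unadjusted p under 0.05 in DESeq2). Leaving out CS replicate 2 gave 4 higher and 1 lower (all genes in that fit 3.85% and 2.7%). The median was 0.03, or -0.13 without CS replicate 2, and all 13 came from the study's list of CS vs. HFS differences, which makes their direction no independent evidence. *Ecel1*, a neuronal membrane metalloprotease, was 56.1, 80.2 and 65.0 CPM in CS, 83.6, 65.9 and 97.8 CPM in HFS and 89.1, 106, 98.7 and 109 CPM in HFR. HFR lay above CS, with HFS spread over both ranges (log2 fold change 0.59, standard error 0.17, unadjusted p = 0.00285, and 0.29 in HFR vs. HFS, unadjusted p = 0.0957), and DESeq2 without CS replicate 2 and HFS replicate 2 called it in HFR vs. CS. *Nptx2*, an activity-regulated pentraxin that gathers AMPA receptors at excitatory synapses, was 67.9, 78.6 and 35.2 CPM in CS and 99.3, 84.2, 79.7 and 93.4 CPM in HFR. The groups did not overlap, with HFR replicate 3 next to CS replicate 2 (log2 fold change 0.55, standard error 0.25, unadjusted p = 0.046).

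The peptide genes that define the nucleus varied more within groups than between them. *Pomc* was 464, 875 and 171 CPM in CS, 1012, 857 and 1063 CPM in HFS and 182, 907, 1067 and 901 CPM in HFR. HFR replicate 1 was at the level of the lowest CS library and the other 3 HFR libraries at the level of HFS (log2 fold change 0.60, standard error 0.68, unadjusted p = 0.401, or 1.28 and 0.128 without CS replicate 2). *Ghrh* had a like spread, at 29.4, 90.5 and 42.9 CPM in CS and 34.9, 95.5, 126 and 85.8 CPM in HFR (log2 fold change 0.65, standard error 0.46, unadjusted p = 0.193, or 1.26 and 0.0158 without CS replicate 2 and 0.41 and 0.424 without HFR replicate 3).

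*Cck*, the cholecystokinin precursor, was 34.1, 19.6 and 43.1 CPM in CS, 13.6, 11.5 and 20.3 CPM in HFS and 21.3, 25.2, 40.3 and 19.0 CPM in HFR. HFR fell within the CS range apart from replicate 4, just below it. The log2 fold change was -0.29 in HFR vs. CS (standard error 0.31, unadjusted p = 0.363), -1.09 in HFS vs. CS (standard error 0.34, unadjusted p = 0.00601) and 0.80 in HFR vs. HFS (standard error 0.32, unadjusted p = 0.0251). The HFR vs. CS value of *Cck* was -0.54 without CS replicate 2 (unadjusted p = 0.0901), -0.56 without HFR replicate 3 (0.0655) and -0.81 without both (0.00602). *Gad2*, which makes GABA, was 398, 114 and 259 CPM in CS and 212, 221, 153 and 156 CPM in HFR. CS replicates 1 and 3 were above all HFR libraries and CS replicate 2 below them (log2 fold change -0.47, standard error 0.34, or -0.81 with an unadjusted p of 0.00108 without CS replicate 2), and DESeq2 without CS replicate 2 and HFS replicate 2 called it. *Trh*, the thyrotropin-releasing hormone precursor, was 143, 123 and 132 CPM in CS and 144, 121, 98 and 110 CPM in HFR (log2 fold change -0.17, standard error 0.15, or -0.09 without HFR replicate 3).

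Of 15 hypothalamic transcription factors, 8 had an identifier and were tested, 7 were below 0, and 0 higher and 1 lower had an unadjusted p under 0.05 (all genes 1.93% and 2.35%), with 0 called by edgeR or DESeq2 (1 at an unadjusted p under 0.05 in DESeq2). The median log2 fold change was -0.25, with -0.01 over all genes, and all 8 came from the study's list. *Nkx2-1*, a marker of the ventral hypothalamus, was 31.4, 35.8 and 32 CPM in CS and 32.7, 33.5, 50.1 and 37.2 CPM in HFR, and overlapped (log2 fold change 0.21, or 0.06 without HFR replicate 3). *Npas1* was 10.5, 3.39 and 11.2 CPM in CS and 8.57, 7.37, 3.20 and 3.53 CPM in HFR (log2 fold change -0.56, standard error 0.48, or -0.92 without CS replicate 2 and -0.37 without HFR replicate 3).

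In the NF-kB, cytokine and chemokine list all 41 genes had an identifier and 30 passed the filter. Of these, 14 were above 0, and 1 higher and 2 lower had an unadjusted p under 0.05 (all genes 1.93% and 2.35%), with 0 called by edgeR or DESeq2 (4 at an unadjusted p under 0.05 in DESeq2). With CS replicate 2 left out, 2 higher and 0 lower had such a p (all genes in that fit 3.85% and 2.7%). The median was -0.08, or 0.27 without CS replicate 2, -0.24 without CS replicate 1 and 0.02 by DESeq2, and 11 of the 41 came from the study's list of CS vs. HFS differences. The cytokine genes *Il1b*, *Il6*, *Cxcl1*, *Cxcl2* and *Ccl2* were among the 11 that did not pass, with no more than 5, 2, 1, 2 and 2 counts in any library. They have no test in the main edgeR fit. *Il1b* was 0, 0 and 0 CPM in CS, 0.69, 0 and 0.801 CPM in HFS and 0.798, 0.553, 1.07 and 0.68 CPM in HFR. It had counts in every HFR library and in no CS library, at most 5 in any of them. *Tnfrsf1a*, the main receptor of tumour necrosis factor, was 32.2, 40.6 and 26.2 CPM in CS, 40.7, 31.7 and 32.2 CPM in HFS and 20.1, 24.9, 25.1 and 22.2 CPM in HFR. HFR was below both sedentary groups with no overlap. The log2 fold change was -0.52 in HFR vs. CS (standard error 0.19, unadjusted p = 0.0159), -0.59 in HFR vs. HFS (standard error 0.19, unadjusted p = 0.00679) and 0.08 in HFS vs. CS. Without CS replicate 2 the HFR vs. CS value was -0.33 (unadjusted p = 0.129).

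*Nfkb2*, the p100 subunit of the noncanonical NF-kB pathway, was 13.7, 16.2 and 14.6 CPM in CS, 14.3, 10.6 and 15.1 CPM in HFS and 4.19, 11.6, 8.95 and 11.8 CPM in HFR. HFR replicate 1 was the lowest library and HFR lay below CS (log2 fold change -0.69, standard error 0.31, unadjusted p = 0.0409). *Il4r*, the alpha chain of the interleukin-4 receptor, was 20, 23.9 and 21 CPM in CS, 24.7, 29.7 and 31.4 CPM in HFS and 32.3, 36.1, 27.3 and 28.4 CPM in HFR. It was higher in HFR than in CS with no overlap, and HFR and HFS overlapped (log2 fold change 0.52, standard error 0.18, unadjusted p = 0.0122).

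In the list of microglial, complement and antigen presentation genes, 28 of 34 had an identifier and 27 were tested, 10 were above 0 and 17 below, and 1 higher and 0 lower had an unadjusted p under 0.05 (all genes 1.93% and 2.35%), with 0 called by edgeR or DESeq2 (1 at an unadjusted p under 0.05 in DESeq2). The counts were 5 higher and 0 lower without CS replicate 2 (all genes in that fit 3.85% and 2.7%). The list median was -0.13 over all libraries and 0.27 without CS replicate 2, so that this library decided its sign, and 21 of the 28 came from the study's list. *Tnfaip8l2*, a restrainer of innate immune signalling, was 11.2, 13.5 and 9.23 CPM in CS and 14.0, 14.9, 19.2 and 20.8 CPM in HFR, with no overlap (log2 fold change 0.60, standard error 0.25, unadjusted p = 0.0317). *Capg*, an actin-capping protein of macrophages, was 12, 25 and 20.4 CPM in CS, 69.5, 26.4 and 63.9 CPM in HFS and 26.5, 31.5, 27.1 and 28.1 CPM in HFR. HFR lay in a narrow band above CS, and HFS replicates 1 and 3 were far above both. The log2 fold change was 0.57 in HFR vs. CS (standard error 0.31, unadjusted p = 0.0908), 1.48 in HFS vs. CS and -0.91 in HFR vs. HFS (standard error 0.30, unadjusted p = 0.00838). *Npc2*, a lysosomal cholesterol carrier, was 264, 384 and 234 CPM in CS and 308, 321, 452 and 365 CPM in HFR, and overlapped (log2 fold change 0.30, or 0.55 without CS replicate 2 and 0.17 without HFR replicate 3).

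Among the stress protection, metallothionein and glutathione genes, 24 of 25 had an identifier and 23 were tested, 15 were above 0, and 2 higher and 0 lower had an unadjusted p under 0.05 (all genes 1.93% and 2.35%), with 0 called by edgeR or DESeq2 (3 at an unadjusted p under 0.05 in DESeq2). Leaving out CS replicate 2 gave 5 higher and 0 lower at that p (all genes in that fit 3.85% and 2.7%). The median was 0.20, 0.40 without CS replicate 2, 0.00 without HFR replicate 3 and -0.07 without CS replicate 3, and 16 of the 24 came from the study's list. *Cryab*, a small heat shock protein that is abundant in oligodendrocytes, was 158, 200 and 218 CPM in CS, 503, 309 and 236 CPM in HFS and 287, 263, 286 and 278 CPM in HFR. The HFR libraries lay close together above CS, inside the wide HFS range (log2 fold change 0.53, standard error 0.21, unadjusted p = 0.0218). The summed oligodendrocyte markers, given above and all from the study's list, also had a higher mean in HFR, 13891 against 10656 CPM. Their part in the *Cryab* value was not tested. *Ddit4*, an inhibitor of mTORC1 that glucocorticoids induce, was 84.4, 81.1 and 62.7 CPM in CS and 99.1, 128, 112 and 72.3 CPM in HFR, and *Sgk1*, a kinase with the same inducer, was 81.0, 56.0 and 30.7 CPM and 98.5, 99.1, 62.0 and 72.7 CPM. Both overlapped (log2 fold change 0.43, unadjusted p = 0.0311, and 0.57, unadjusted p = 0.0558).

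All 32 extracellular matrix and remodelling genes had an identifier and 31 were tested, 11 above 0 and 20 below, and 0 higher and 1 lower had an unadjusted p under 0.05 (all genes 1.93% and 2.35%), with 0 called by edgeR or DESeq2 (1 at an unadjusted p under 0.05 in DESeq2). Leaving out CS replicate 2 turned this to 1 higher and 0 lower (all genes in that fit 3.85% and 2.7%). The median was -0.20 and became 0.42 without CS replicate 2, and 26 of the 32 came from the study's list. CS replicate 2 also had the highest summed mural and fibroblast markers, at 797 CPM. That sum shares *Fbln1*, *Prelp* and *Aebp1* with the matrix list (117, 130 and 156 CPM in CS replicate 2), so it is not a separate observation. *Mxra8*, a matrix-associated adhesion protein, was 18.1, 28.0 and 14.8 CPM in CS, 27.6, 22.2 and 29.0 CPM in HFS and 11.0, 16.6, 13.0 and 13.6 CPM in HFR. HFR was below HFS with no overlap, while its second library lay inside the CS range. The log2 fold change was -0.59 in HFR vs. CS (standard error 0.24, unadjusted p = 0.028, or -0.27 and 0.284 without CS replicate 2) and -0.95 in HFR vs. HFS (standard error 0.24, unadjusted p = 0.00111). *Fn1*, which encodes fibronectin, was 23.6, 51.0 and 44.9 CPM in CS and 21.9, 24.9, 17.5 and 43.4 CPM in HFR (log2 fold change -0.55, standard error 0.30, or -0.32 without CS replicate 2). *Lamb2*, a laminin chain of basement membranes, was 57.1, 121 and 48.1 CPM in CS and 42.9, 45.0, 55.6 and 74.5 CPM in HFR. Both overlapped, and for *Lamb2* the log2 fold change of -0.47 became 0.07 without CS replicate 2.

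All 45 synaptic and neuronal excitability genes had an identifier and came from the study's list of CS vs. HFS differences, so their direction is not independent evidence. Of 44 tested, 14 were above 0 and 30 below, and 1 higher and 2 lower had an unadjusted p under 0.05 (all genes 1.93% and 2.35%), with 0 called by edgeR or DESeq2 (2 at an unadjusted p under 0.05 in DESeq2). The counts at that p were 2 higher and 7 lower without CS replicate 2 (all genes in that fit 3.85% and 2.7%). The median was -0.09, with -0.01 over all genes, or -0.33 without CS replicate 2 and 0.06 without CS replicate 3. *Nrgn*, the postsynaptic calmodulin-binding protein neurogranin, was 651, 932 and 562 CPM in CS, 576, 703 and 934 CPM in HFS and 1004, 1015, 1106 and 823 CPM in HFR. The first 3 HFR libraries were above every sedentary library and HFR replicate 4 was not (log2 fold change 0.46, standard error 0.19, unadjusted p = 0.0282, or 0.71 and 0.00189 without CS replicate 2, and 0.42 in HFR vs. HFS, unadjusted p = 0.0442). *Cntn1*, the axonal adhesion protein contactin 1, was 30.1, 26.7 and 42.7 CPM in CS, 23.1, 33.7 and 22.7 CPM in HFS and 24.7, 21.9, 25.8 and 24.2 CPM in HFR. HFR lay just below CS, with HFS on both sides (log2 fold change -0.46, standard error 0.21, unadjusted p = 0.0438).

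All 11 mitochondrial respiration genes were tested, 7 above 0, and 1 higher and 0 lower had an unadjusted p under 0.05 (all genes 1.93% and 2.35%), with 0 called by edgeR or DESeq2 (2 at an unadjusted p under 0.05 in DESeq2). There were 3 higher and 0 lower without CS replicate 2 (all genes in that fit 3.85% and 2.7%). The median was 0.04, or 0.26 without CS replicate 2, and 8 of the 11 came from the study's list. *Ndufs7*, a core subunit of complex I, was 206, 419 and 217 CPM in CS, 401, 431 and 385 CPM in HFS and 416, 394, 400 and 388 CPM in HFR. CS replicate 2 was at the level of both high-fat groups and the other CS libraries were far below it (log2 fold change 0.51, standard error 0.20, unadjusted p = 0.023). Without CS replicate 2 it was called (log2 fold change 0.93, edgeR adjusted p = 0.0313). *Mrpl54*, of the mitochondrial ribosome, was 228, 262 and 176 CPM in CS and 266, 263, 331 and 246 CPM in HFR, and *Cox6a2*, a complex IV isoform best known from heart and muscle, was 1.87, 13.5 and 6.87 CPM and 5.98, 14.4, 23.0 and 18.3 CPM. Both overlapped (log2 fold change 0.32, unadjusted p = 0.053, and 1.05, unadjusted p = 0.0897, the latter 1.85 and 0.00787 without CS replicate 2).

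**Figure D5:**
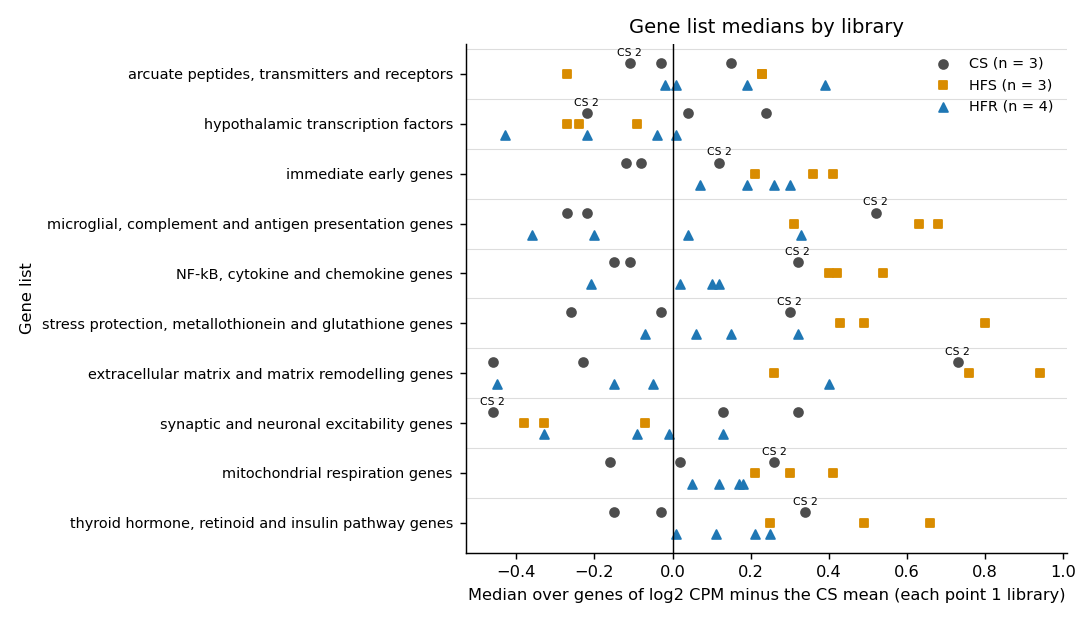
Median over the tested genes of each list of the log2 CPM minus the mean of the CS libraries, each point 1 library, with CS as circles (n = 3), HFS as squares (n = 3) and HFR as triangles (n = 4). CS replicate 2, marked CS 2, lies at 0.73 for the extracellular matrix list and 0.52 for the microglial list, above all 4 HFR libraries, and at -0.46 for the synaptic list, below them.

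The remaining genes without overlap fell outside the lists. *Plekhf1*, a lysosomal protein with PH and FYVE domains, was 22.6, 21.2 and 19.5 CPM in CS, 37.8, 43.3 and 35.9 CPM in HFS and 29.7, 42.0, 38.8 and 37.2 CPM in HFR. Both high-fat groups were above CS (log2 fold change 0.80, standard error 0.18, unadjusted p = 0.000341, and -0.08 in HFR vs. HFS, standard error 0.17), and DESeq2 called it in HFR vs. CS (adjusted p = 0.0399). *Mocs1*, of molybdenum cofactor synthesis, was 12, 15.0 and 11.2 CPM in CS and 15.6, 15.7, 25.8 and 23.0 CPM in HFR, where the first 2 HFR libraries lay just above CS. *Ocel1* was 84.8, 97.7 and 75.1 CPM in CS and 103, 112, 127 and 114 CPM in HFR. Their log2 fold changes were 0.65 (unadjusted p = 0.0267) and 0.41 (unadjusted p = 0.00869). *Depp1*, a target of FoxO factors, rested on 3 to 21 counts in the CS and HFR libraries, at 0.561, 0.535 and 1.5 CPM in CS, 1.21, 1.60 and 0.32 CPM in HFS and 1.79, 3.87, 2.77 and 2.04 CPM in HFR. HFR lay above both sedentary groups (log2 fold change 1.60, standard error 0.66, unadjusted p = 0.0286, and 1.31 in HFR vs. HFS, unadjusted p = 0.0545).

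On the lower side, *Hlx* was 5.80, 4.99 and 5.37 CPM in CS, 4.83, 4.48 and 4.16 CPM in HFS and 2.39, 3.13, 1.49 and 2.72 CPM in HFR, from 7 to 31 counts in the CS and HFR libraries. HFR was below both sedentary groups with no overlap (log2 fold change -1.13, standard error 0.37, unadjusted p = 0.00778, and -0.87 in HFR vs. HFS, unadjusted p = 0.0328). *Cdkn1a*, which encodes p21, was 43.4, 35.6 and 35.8 CPM in CS, 21.4, 30.1 and 53.5 CPM in HFS and 25.7, 30.6, 22.6 and 26.8 CPM in HFR. HFS covered both other groups (log2 fold change -0.53, standard error 0.25, unadjusted p = 0.0482). *Riok3*, a kinase gene, was 78.0, 82.2 and 85.2 CPM in CS and 69.2, 74.6, 71.4 and 71.3 CPM in HFR. The groups did not overlap, but the fitted difference did not pass an unadjusted p of 0.05 (log2 fold change -0.19, unadjusted p = 0.15).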

How the data were processed

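The authors prepared bulk MARS-seq libraries, which tag and sequence transcript ends, trimmed adapters, aligned reads to Rnor6 with STAR 2.7.9a, took out PCR duplicates by SAMtools and ran HTSeq 0.13.5 in union mode, ignoring strand. What they deposited is a raw integer count for each of 32883 Ensembl genes. Overlapping and antisense genes can lose or share reads. The 5 summary entries per library were left out, among them reads outside genes (22.37% to 26.29%) and reads aligned to more than 1 place (17.17% to 20.63%). The sample labels name the organism as Rattus rattus, whereas the study describes Wistar rats.

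Counts of the 10 CS, HFS and HFR libraries were fitted together in edgeR 4.0.16 (R 4.3.3; TMM factors, filterByExpr, robust quasi-likelihood test), with p-values adjusted over the 11892 genes that passed the filter and a call at an adjusted p under 0.1. Standard errors are the log2 fold change over the root of the F statistic. CPM values include the TMM factors. Log2 values in the PCA and distances used a prior count of 2, and the list medians per library added 0.5 CPM. The fit was checked on simulated data. Symbols came from the study's supplementary gene lists, which cover 606 identifiers, and no RefSeq entry matched by Ensembl identifier. Gene lists, markers and members were chosen with earlier results of these data known. Named genes, of which not all are described, were all called genes, the 12 with the smallest p per direction among genes with a symbol whose groups do not overlap, the 3 with the smallest p in each list, and *Pomc*, *Cck*, *Gad2*, *Trh* and *Ghrh*. Alternatives were DESeq2 1.42.0, RLE and upper-quartile normalization, other filters and thresholds, only the CS and HFR libraries, the replicate number as a block, other PCA settings, each library left out, and CS replicate 2 left out with HFS replicate 2. After seeing the data, fits of CS and HFR only without CS replicate 2, and without CS replicate 2 and HFR replicate 3 together, were added.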

Additional observations from a re-analysis of the deposited data

Results flagged for a closer look

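Of 71 values checked in the 4 HFR libraries, 5 had 1 library far from the other 3 by Dixon's ratio of gap to range at its usual critical value, which by its definition sets apart about 1 in 20 groups by chance. HFR replicate 3 was set apart on PC1 at 38.9, with the others between -4.17 and -3.16, and in the share of reads outside annotated genes, at 22.4%, with the others between 24.3% and 24.7%. HFR replicate 1 was set apart in 3 values. Its *Gpd1* was 134 CPM against 82.1 to 85.7 CPM, its *Ier5* 28.3 CPM against 37.5 to 38.3 CPM, and its summed pan-neuronal markers 4800 CPM against 4250 to 4276 CPM. For *Gpd1* and *Ier5* the other 3 HFR libraries also lay beyond every CS library.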

How the results depend on the processing

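Gene calls were few and moved with the settings. The 2 calls of HFR vs. CS (1 higher, 1 lower) became 16 with DESeq2 and its own filter (5 and 11) and 8 with no filter on low counts (1 and 7). They were 33 (19 and 14) with DESeq2 without CS replicate 2 and HFS replicate 2, and 2 (2 and 0) in edgeR without those 2 libraries. Among the added alternatives they were 0 (0 and 0) with only CS and HFR without CS replicate 2, where 584 genes had an unadjusted p under 0.05, and 3 (3 and 0) without CS replicate 2 and HFR replicate 3. Leaving out 1 library gave 0 to 3 calls (0 to 2 higher, 0 to 2 lower). Same-numbered CS and HFR libraries had correlations of 0.15, -0.12 and -0.12, against -0.23 to 0.11 between libraries with different numbers. So few values cannot show whether the replicate numbers of the sample titles pair the animals. CS replicates 2 and 3 carry other replicate numbers in their deposited names, so these correlations and the block rest on the titles alone. With the replicate number as a block 0 genes were called in edgeR (0 higher, 0 lower), with 594 at an unadjusted p under 0.05. The 509 genes at an unadjusted p under 0.05 (230 higher, 279 lower) were 843 with no filter (502 lower) and 452 to 796 with 1 library left out (193 to 468 higher, 259 to 403 lower). They were 908 (509 higher) without CS replicate 2 and HFR replicate 3, and 410 and 422 were higher without CS replicate 2 and HFS replicate 2 in edgeR and DESeq2. The causes were not tested. PC1 had an exact p of at least 0.1 in all of its alternatives, but a design of this size cannot pass 0.05.

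List medians moved by more than the SD of the HFR libraries in 26 of 190 pairs of list and alternative, mostly without CS replicate 2. Without CS replicate 2 and HFS replicate 2 they were 0.25 (immediate early), 0.27 (microglial), 0.29 (NF-kB), 0.40 (stress), 0.39 (matrix), -0.33 (synaptic), 0.26 (mitochondrial) and 0.34 (thyroid). Without CS replicate 2 and HFR replicate 3 they were 0.38 (immediate early), 0.23 (microglial), 0.22 (NF-kB), 0.42 (matrix) and 0.30 (mitochondrial). With 1 library left out the ranges were 0.07 to 0.25 (immediate early), -0.27 to 0.27 (microglial), -0.24 to 0.27 (NF-kB), -0.07 to 0.40 (stress), -0.49 to 0.42 (matrix), -0.33 to 0.06 (synaptic), 0.01 to 0.26 (mitochondrial) and 0.01 to 0.35 (thyroid). Of 853 pairs of named gene and alternative, over 19 alternatives, 836 kept direction and side of the threshold. Among the alternatives outside these pairs, DESeq2 without CS replicate 2 and HFS replicate 2 called the named genes *Nr4a1*, ENSRNOG00000009779, *Ecel1*, *Gad2* and *Ndufs7*. Only *Lamb2* (0.07 without CS replicate 2, 0.06 without CS and HFS replicate 2, 0.06 without CS replicate 2 and HFR replicate 3) and *Gad2* (0.01 without CS replicate 1) changed sign. The log2 fold change of *Lamb2* in HFR vs. CS spanned -0.7 to 0.07 with 1 library left out, the lowest without CS replicate 3, and that of *Gad2* -0.81 to 0.01, the lowest without CS replicate 2.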
